A study of Mus musculus with 48 samples.

Results

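In cycling WT vAbl cells, joints to the signal end and to the coding end of the same Jκ1 break were compared: 3 HTGTS-JoinT-seq libraries with the Jκ1SE bait against 3 with the Jκ1CE bait, out of 48 libraries in the series. They were chosen by the sample labels alone (genotype WT, treatment Cycling, bait JK1SE or JK1CE). vAbl cells are mouse pro-B cells transformed with the Abelson kinase; the methods name a single WT clone (clone B), with no drug in the cycling group. As a reference, 3 Jκ1CE and 3 Jκ1SE libraries of the same WT line arrested with STI-571 (3 μM, 96 h) plus DMSO were used. The study states that its experiments were repeated biologically, but no label ties a library to its own culture, so part of the spread given here may be technical. Each list came from 500000 read pairs and held 22717, 30320 and 32108 junctions for the Jκ1CE bait and 24269, 25104 and 22602 for the Jκ1SE bait in cycling cells. The arrested DMSO libraries held 339201 to 385847.

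RAG1/2 cuts between a gene segment and its recombination signal sequence (RSS), which leaves a blunt signal end and a hairpin-sealed coding end on each partner. In the Igκ locus many Vκ segments lie in the same transcriptional orientation as Jκ1 (deletional) and many in the opposite one (inversional). Joining at a deletional Vκ keeps the coding joint in the chromosome and leaves the signal joint on an excised circle. Joining at an inversional Vκ flips the DNA in between and keeps both joints in the chromosome. Excision circles have no place in the chromosome and are known to be diluted when cells divide. The comparison of baits in cycling cells therefore asks which signal joints are found beside the coding joints of the same break.

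The ends of the break and the RSS of the sites on which the comparison turns are given as they read from the break outward, 5′ to 3′, on mm9; capitals mark the heptamer and the nonamer, and for the intron site the heptamer. The Jκ1 ends are the baits. Igkv6-32 is the most used site from the Jκ1SE bait and Igkv3-7 the most used from the Jκ1CE bait. Igkv2-112 is a called deletional site whose 100-base flanks are at most 63.0% identical to those of any other site. The intron site is where the baits differed most outside the Vκ region in percentage points of junctions, though not by ratio.
Jκ1 signal end, minus strand, chr6:70672517-70672555: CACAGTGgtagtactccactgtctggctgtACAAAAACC
Jκ1 coding end, plus strand, chr6:70672556-70672593: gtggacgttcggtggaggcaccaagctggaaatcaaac
Igkv6-32 RSS (inversional), minus strand, chr6:70023990-70024017: CACAGTGcttcagcctcctACACAAACC
Igkv3-7 RSS (deletional), plus strand, chr6:70558031-70558058: CACAGTGctccagggctgaACAAAAACC
Igkv2-112 RSS (deletional), plus strand, chr6:68170701-68170728: CACAGTGatagagccctgaACAAAAACC
Jκ–Cκ intron site, plus strand, chr6:70675008-70675037: CACAGTGataggaacagagccactaatctg

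Vκ break sites were placed from the signal end junctions of arrested WT libraries, not from the cycling ones. There were 138 sites, 63 deletional and 75 inversional, of which 94 lie within 100 bp of an annotated Vκ gene and 111 carry the heptamer CACAGTG. In cycling cells the junctions within 200 bp of these sites numbered 20163, 27274 and 29420 from the Jκ1CE bait and 21243, 20706 and 19376 from the Jκ1SE bait. V-J efficiency, these junctions as a percentage of read pairs, was 5.12% ± 0.969 (SD, n = 3) from the Jκ1CE bait and 4.09% ± 0.192 (SD, n = 3) from the Jκ1SE bait, and the libraries overlapped. At Vκ sites the Jκ1SE libraries held far fewer different joints. Distinct junctions, counting once those alike in prey position and strand, in bait end and in overlap or gap, numbered 1657, 1589 and 1670 from the Jκ1CE bait and 280, 277 and 270 from the Jκ1SE bait. Counting also the far end of the prey, a proxy for the sheared molecule, gave 4216, 3739 and 4413 against 1448, 1713 and 2321. The counts of both kinds did not overlap between baits, and the files count amplified copies, so each of the 33 library-level comparisons was also computed per molecule end. Values of single positions, trimmed bases and inserted strings count copies.

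The deletional share of Vκ-site junctions was much lower from the signal end. It was 40.4%, 38.4% and 37.2% in the 3 Jκ1CE libraries and 14.5%, 13.3% and 13.6% in the 3 Jκ1SE libraries. The difference of means was −24.9 percentage points, with no overlap (exact two-sided permutation p = 0.1, the smallest that 3 against 3 libraries can give; 0.132 after Benjamini-Hochberg adjustment over 33 library-level comparisons). Inversional junctions outnumbered deletional ones 1.59 ± 0.105 to 1 from the Jκ1CE bait and 6.27 ± 0.339 to 1 from the Jκ1SE bait (SD, n = 3 each). Per molecule end the deletional shares were 34.3% ± 2.41 and 14.8% ± 0.593 (SD, n = 3). With each distinct junction counted once the gap was narrower, 31.3% ± 2.38 against 23.6% ± 1.16 (SD, n = 3). That count takes an untrimmed direct joint once per site, so it does not weigh sites by their use.

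Arrested cells did not show this order. There the deletional share was 41.1% ± 0.874 from the Jκ1CE bait and 49.0% ± 0.531 from the Jκ1SE bait (SD, n = 3 each). The bait difference in cycling cells minus that in arrested cells was −32.9 points (exact permutation of bait labels within treatment, p = 0.005, the smallest of 400 arrangements; adjusted p = 0.0138). Here and below, the null of this permutation is no bait effect in either treatment, not an equal bait effect in both. Its p can be the smallest only where the bait gaps of the treatments have opposite signs. The Jκ1CE bait gave close values in cycling and arrested cells, while the Jκ1SE bait went from 49.0% to 13.8%. Every library was read in 2 sequencing runs, and the cycling bait difference was −25.0 points within the larger run and −24.4 points within the smaller.

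**Figure D1:**
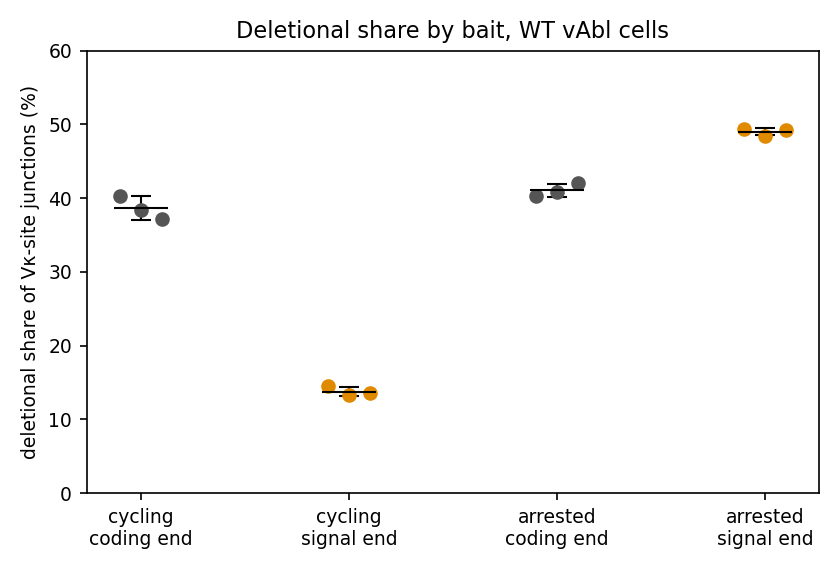
Deletional share of Vκ-site junctions (percent, y axis) in each library of WT cells by treatment and bait; points are libraries, and bars are the mean and SD of 3. The 3 cycling signal end libraries lie between 13.3% and 14.5%, and all others lie between 37.2% and 49.4%.

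Site by site, deletional and inversional sites differed in the direction of most calls, with exceptions among inversional sites. Of 71 sites with a mean of at least 50 junctions, 10 held a higher share from the Jκ1SE bait (14.1% of sites tested) and 15 a lower share (21.1%), by limma with a Benjamini-Hochberg adjusted p of at most 0.05. The mean was taken over both baits, so a site rare from 1 bait could enter through the other, which favoured a large ratio. Among the called sites Igkv2-112, Igkv3-1, Igkv4-70 and Igkv10-94 had fewer than 50 junctions in every library of their low bait. The count of lower sites was 9 without Jκ1CE replicate 1 and 8 without Jκ1CE replicate 2. All 10 that were higher are inversional, 20.8% of the 48 inversional sites tested. Of the 15 that were lower, 10 are deletional (43.5% of the 23 tested) and 5 inversional (10.4%). No deletional site was called higher (0 of 23; 0%). The median log2 ratio, signal over coding end bait, was −1.54 over the deletional sites and 0.32 over the inversional sites, with 22 of the 23 deletional and 17 of the 48 inversional sites below 0. No deletional site of sTAD4 was among those tested. In arrested cells the same sites had medians of −0.05 and −0.41. When each site was taken as a share of the junctions of its own orientation, 2 sites were called higher (Igkv8-16 and the deletional site at position 68289989) and 2 lower (Igkv4-70 and Igkv3-2). Counting each molecule end once gave 17 higher and 16 lower, and each distinct junction once 17 higher and 5 lower.

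**Figure D2:**
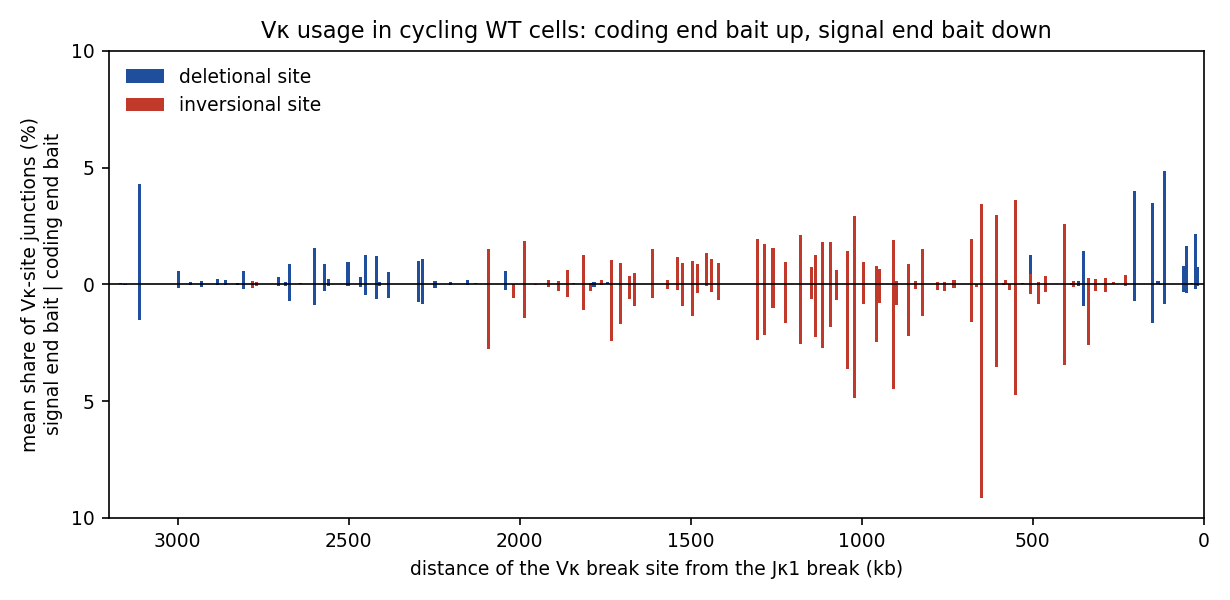
Mean share of Vκ-site junctions (percent, y axis) at each of the 138 sites in cycling WT cells against distance from the Jκ1 break (kb, x axis); bars point up for the coding end bait and down for the signal end bait, coloured by orientation. Deletional bars at both ends of the locus are shorter from the signal end, and Igkv6-32 reaches 9.14%.

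The most used sites were different for the baits. From the Jκ1CE bait they were Igkv3-7 (4.85% ± 0.174 of Vκ-site junctions), Igkv1-135 (4.28% ± 0.301), Igkv3-12 (3.99% ± 0.197), Igkv8-27 (3.597% ± 0.421) and Igkv3-10 (3.47% ± 0.211; SD, n = 3), all deletional but Igkv8-27. From the Jκ1SE bait they were Igkv6-32 (9.14% ± 2.28), Igkv4-50 (4.88% ± 0.577), Igkv8-27 (4.74% ± 0.906), Igkv12-44 (4.48% ± 0.473) and the unannotated site at position 69631399 (3.62% ± 0.595; SD, n = 3), all inversional. Igkv8-27 was thus high from both ends, and its shares overlapped between baits (limma log2 ratio 0.38 ± 0.23, SE; adjusted p = 0.194).

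Igkv6-32, 648.5 kb from Jκ1, was the most used site of the signal end. Its junctions numbered 778, 901 and 917 in the Jκ1CE libraries and 1681, 2437 and 1501 in the Jκ1SE libraries. The shares did not overlap, and the log2 ratio was 1.39 ± 0.22 (SE; limma adjusted p = 2.7e-06). In arrested cells its mean shares were 2.36% from the Jκ1CE bait and 2.10% from the Jκ1SE bait, and the interaction was 1.57 ± 0.24 (SE; limma adjusted p = 0.000997). Its 28-base RSS is also that of 7 other sites, and its first 39 signal-side bases are also those of Igkv6-17, a deletional site. Compared base by base without gaps over 100 bases, its signal flank is at most 58.0% and its coding flank at most 93.0% identical (to Igkv6-17) to that of any other site; an inserted or lost base lowers such a value. Among inversional junctions alone its log2 ratio was 0.90 and not called (limma adjusted p = 0.0575).

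Among deletional sites Igkv3-7, 114.5 kb from Jκ1, had 957, 1296 and 1486 junctions from the Jκ1CE bait and 202, 108 and 194 from the Jκ1SE bait. Every Jκ1SE library was below every Jκ1CE library, with a log2 ratio of −2.61 ± 0.32 (SE; limma adjusted p = 3.1e-08). Igkv1-135 lies at the far end of the locus, 3112.1 kb away, and counted 888, 1227 and 1158 junctions against 210, 310 and 416. There the log2 ratio was −1.54 ± 0.29 in cycling cells (SE; limma adjusted p = 6.1e-05). Among deletional junctions alone the log2 ratio was −0.05 at Igkv1-135 (limma adjusted p = 0.907) and −1.12 at Igkv3-7 (limma adjusted p = 0.0539), neither called. In arrested cells the Jκ1SE bait used Igkv1-135 more than the Jκ1CE bait did (mean shares 5.74% and 2.30%), so that the interaction was −2.85 ± 0.31 (SE; limma adjusted p = 9.6e-05). Igkv2-112 counted 178, 323 and 240 junctions from the Jκ1CE bait and 0, 21 and 13 from the Jκ1SE bait (log2 ratio −4.85 ± 1.32, SE; limma adjusted p = 0.00362). With copies counted as independent, a count of 0 in that library allows a share of up to 0.0141% of Vκ-site junctions. Its 21243 junctions came from 1448 molecule ends, so the limit for molecules is wider.

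Among called deletional sites without overlap between baits, the others with the lowest ratios were Igkv3-1, Igkv3-2, Igkv6-25 and Igkv3-12. Their log2 ratios were −5.34, −3.80, −3.05 and −2.82. Igkv3-1 had 164, 145 and 250 junctions against 0, 47 and 0, and Igkv3-2 had 577, 510 and 491 against 14, 23 and 78. Igkv6-25 had 252, 405 and 318 against 17, 30 and 54, and Igkv3-12 had 847, 1040 and 1160 against 263, 37 and 152. Site counts here and above also include joints of the Jκ1 signal end to the Vκ coding end (hybrid joints, below), which are not on circles at deletional sites. They made up 24 of the 54 at Igkv6-25, and 12 of the 37 and 59 of the 152 at Igkv3-12. Igkv3-1 and Igkv3-2 are the Vκ segments next to Jκ1, 18.4 and 23.5 kb away. The low ratio thus held both at the near and at the far end. The fitted values at Igkv3-1 and Igkv2-112 rest on libraries at 0 and depend on the junction added before the logarithm.

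Not every large ratio followed orientation. Igkv4-70, which is inversional, had 189, 396 and 477 junctions from the Jκ1CE bait and 11, 4 and 30 from the Jκ1SE bait (log2 ratio −4.44 ± 1.00, SE; limma adjusted p = 0.00052). The ratio was as low in arrested cells, −4.85, and its interaction of 0.41 was not called. Other inversional sites with large ratios went the way of most inversional calls. Igkv8-16 (15, 7 and 215 against 437, 616 and 531), the site at position 70190420 (0, 9 and 76 against 147, 186 and 178) and Igkv10-94 (5, 15 and 1 against 59, 236 and 67) had log2 ratios of 4.42, 4.53 and 4.41, with 2.79, 1.99 and 1.73 in arrested cells. Each of these 4 sites has a near-identical flank elsewhere. The 100 signal-side bases of Igkv4-70 are 100% identical to those of Igkv4-69, the coding-side bases of Igkv8-16 and of the site at 70190420 are 100% identical to each other, and those of Igkv10-94 are 99.0% identical to those of Igkv10-95. Reads cannot always be placed between such copies, so the usage of these sites is uncertain. A flank at least 95% identical to another site was found at 50 of the 71 tested sites and at 23 of the 25 called; its part in the calls was not tested. Igkv6-32 and Igkv2-112 are the called sites without one by this measure. Higher from the Jκ1SE bait by the same fit were also Igkv12-46 (209, 192 and 179 junctions against 648, 406 and 456; log2 ratio 1.66) and the site at 69631399 (283, 300 and 519 against 892, 623 and 705; log2 ratio 1.36).

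The limma interaction over the 12 cycling and arrested libraries called 14 of 112 sites higher (12.5%) and 18 lower (16.1%). All 14 that were higher are inversional (21.5% of 65), and 17 of the 18 that were lower are deletional (36.2% of 47), with 1 inversional site (1.54% of 65). Within the same orientation the calls were 2 higher and 1 lower, and with each distinct junction counted once 30 and 3. The count of lower sites ranged from 13 to 26 when a cycling library was left out (26 without Jκ1SE replicate 3). Of the calls, 3 deletional sites and the inversional one that was lower had too few cycling junctions for the cycling test, which leaves 14 deletional sites lower and 14 inversional sites higher among the 23 and 48 tested there. Among the sites called, the interactions of largest size upward were at Igkv4-72 (2.16 ± 0.40), Igkv4-61 (1.92 ± 0.30) and Igkv4-50 (1.87 ± 0.23; SE, limma adjusted p = 0.00174, 0.000997 and 0.000172), 3 members of the large Igkv4 family. At Igkv4-72 and Igkv4-61 the cycling shares themselves overlapped between baits, while in arrested cells the Jκ1SE bait was the lower (mean shares 0.324% against 1.08%, and 0.597% against 1.86%). Low values were called at Igkv12-98 (28, 91 and 40 junctions against 0, 5 and 5), Igkv3-1 and the site at 68544370 (6, 21 and 17 against 0 in all 3 libraries), all deletional. Igkv12-98 and the site at 68544370 were too rare for the cycling test and entered through the deeper arrested libraries, whose signal end junctions also placed the sites, so a low interaction was favoured by the choice. The size of all 3 interactions depends on the junction added to counts of 0. The break sites came from arrested signal end libraries, so a site used only in cycling cells could not enter.

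**Figure D3:**
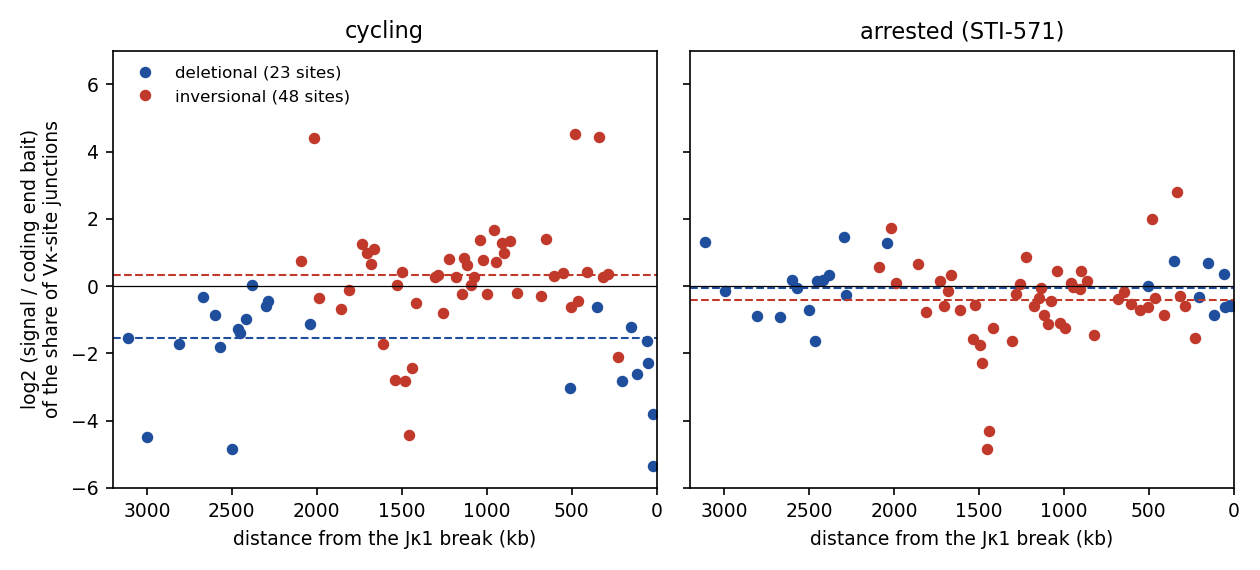
Log2 ratio of the share of Vκ-site junctions, signal over coding end bait (y axis), at the 71 tested sites against distance from the Jκ1 break (kb, x axis), in cycling and arrested WT cells; each point is a site, coloured by orientation, and dashed lines are medians. In cycling cells the deletional median is −1.54 and the inversional 0.32, and in arrested cells they are −0.05 and −0.41.

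The shares of whole regions also differed between baits. Of the 138 sites, 21 of 23 are deletional in sTAD1-2, the sub-TAD (a subdivision of the Igκ topological domain) farthest from Jκ1, against 4 of 33 in sTAD4. The borders were read from the study's map and are approximate. Sites from 67506210 to 68114917 were taken as sTAD1-2, 68170700 to 68880262 as sTAD3, 68890061 to 69676566 as sTAD4 and 69714516 to 70654171 as sTAD5. sTAD1-2 held 10.4% ± 0.216 of Vκ-site junctions from the Jκ1CE bait and 4.51% ± 0.809 from the Jκ1SE bait (SD, n = 3), with no overlap. Per distinct junction the shares were 9.97% ± 1.26 and 8.45% ± 1.67 (SD, n = 3) and overlapped. sTAD4 held 31.9% ± 1.83 and 37.8% ± 3.48 (SD, n = 3), also without overlap, but per distinct junction its order turned. sTAD5, next to Jκ1, held 44.4% ± 1.53 and 46.5% ± 1.86 (SD, n = 3), and sTAD3 13.3% ± 0.643 and 11.2% ± 2.13 (SD, n = 3), with overlap in both. The near-equal sum in sTAD5 hid opposite parts. Its deletional sites held 20.8% ± 1.34 from the Jκ1CE bait and 5.38% ± 1.17 from the Jκ1SE bait, and its inversional sites 23.6% ± 0.644 and 41.1% ± 2.51 (SD, n = 3; exact permutation p = 0.1 for each). The medians of the log2 ratio over deletional sites were −1.63 in sTAD1-2 (6 sites), −1.06 in sTAD3 (8 sites) and −2.61 in sTAD5 (9 sites). They did not run in 1 direction with distance, and differences between regions were not tested.

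Hybrid joints link the signal end of one partner to the coding end of the other. For the Jκ1SE bait, a hybrid joint at a deletional Vκ lies in the chromosome as an inversion, and at an inversional Vκ it lies on a circle. In the 3 cycling Jκ1SE libraries, hybrid joints numbered 32, 82 and 130 at deletional sites (of 3082, 2744 and 2627 junctions) and 10, 9 and 6 at inversional sites (of 18161, 17962 and 16749). The share was 2.99% ± 1.96 at deletional sites and 0.047% ± 0.010 at inversional sites (SD, n = 3). In arrested cells the shares were 1.53% ± 0.366 and 1.91% ± 0.025 (SD, n = 3). Per 1000 Vκ-site junctions the circular class was 9.72 ± 0.069 in arrested and 0.405 ± 0.085 in cycling cells, without overlap, and the chromosomal class 7.52 ± 1.83 and 4.06 ± 2.60, with overlap (SD, n = 3; exact permutation p = 0.1 and 0.3). The denominators also moved between treatments. Signal joints at inversional sites, kept in the chromosome, were 500 ± 5.31 per 1000 in arrested and 862 ± 6.59 in cycling cells. Those at deletional sites, on circles, were 483 ± 4.97 and 134 ± 8.58 (SD, n = 3). The overlap of the chromosomal class thus does not show that it was unchanged. The bait-by-treatment interaction of the share at inversional sites was −2.44 points (exact permutation p = 0.005, adjusted p = 0.0138). The hybrid joints in the chromosome came from few molecules. In the first Jκ1SE library 27 of 32 were Igkv1-135 joints from 3 molecule ends. In the second 45 of 82 came from the site at 68425095, also from 3. Over all Vκ sites the hybrid share was 0.446% ± 0.252 from the Jκ1SE bait and 0.627% ± 0.311 from the Jκ1CE bait (SD, n = 3), with overlap. Leaving out each library put this difference between −0.308 and −0.0045 points. With ends told apart by which side of the break they map to, that small difference turned to 2.40 points more from the Jκ1SE bait. That rule counts as hybrid the most copied Igkv8-27 signal joint (1062, 701 and 1023 copies), which aligns 1 base past its break.

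The Jκ–Cκ intron holds a lone heptamer used in secondary rearrangements that remove Cκ. Joining Jκ1 to it keeps the signal joint in the chromosome as a deletion and puts the coding joint on the circle, the reverse of a deletional Vκ. The site, CACAGTG at position 70675008 and 2.45 kb from Jκ1, took 2040, 3038 and 2145 signal joints in the cycling Jκ1SE libraries and 857, 1344 and 809 coding joints in the Jκ1CE libraries. Per 1000 Vκ-site junctions these were 118 ± 26.1 and 39.8 ± 11.1 (SD, n = 3), the signal end being the higher in each pair of libraries across baits. Per molecule end they were 70.8 ± 8.08 and 33.2 ± 9.32 (SD, n = 3), without overlap. In arrested cells the order was opposite, 2.70 ± 0.154 from the Jκ1SE bait and 22.7 ± 0.432 from the Jκ1CE bait (SD, n = 3), and the interaction was 98.0 per 1000 (exact permutation p = 0.005; adjusted p = 0.0138). In junctions from the same number of read pairs, the arrested Jκ1SE libraries held 858, 883 and 923 and the arrested Jκ1CE libraries 8142, 7980 and 7721. Per 1000 inversional junctions, the Jκ1SE values were 137 ± 29.3 in cycling and 5.30 ± 0.295 in arrested cells (SD, n = 3). The coding joint at this site, which lies on a circle, stood at 27.5 to 49.3 per 1000 in cycling and 22.3 to 23.1 in arrested cells. Another circular class of the Jκ1CE bait, minus-strand preys in Jκ2 to Jκ5, was lower, 28.05 ± 3.85 per 1000 in arrested and 9.46 ± 2.54 in cycling cells (SD, n = 3), without overlap.

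The interval between the last Vκ and Jκ1 had the strand pattern of deletional Vκ. It held 248, 253 and 384 junctions from the cycling Jκ1CE bait, all minus-strand preys kept in the chromosome as deletions, and 1, 13 and 15 from the Jκ1SE bait, all on circles. As a share of all junctions this was 1.04% ± 0.186 against 0.041% ± 0.033 (SD, n = 3), without overlap. In arrested cells the shares were 0.510% and 0.679%, and the interaction was −1.17 points (exact permutation p = 0.005; adjusted p = 0.0138).

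Among Jκ2 to Jκ5, Jκ4 stood out in cycling Jκ1SE libraries. Preys on the minus strand within 20 bp of the Jκ4 break, which join signal end to signal end and stay in the chromosome as inversions, numbered 216, 453 and 259, or 10.2, 21.9 and 13.4 per 1000 Vκ-site junctions. In arrested cells they were 0.17, 0.14 and 0.30 per 1000. The Jκ1CE counterpart, coding end to coding end on the plus strand, gave 471, 474 and 613 junctions in cycling cells, or 23.4, 17.4 and 20.8 per 1000, against 4.86, 4.94 and 4.78 in arrested cells. Both baits thus held more of this inversion per Vκ-site junction in cycling cells, with no overlap.

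Some joints that stay in the chromosome were lower in cycling cells. From the Jκ1SE bait, plus-strand preys in Jκ2 to Jκ5 numbered 10.3 ± 1.35 per 1000 Vκ-site junctions in arrested and 3.52 ± 1.91 in cycling cells, and plus-strand preys downstream of Jκ5 outside the intron site 7.49 ± 0.561 and 0.894 ± 0.943 (SD, n = 3; exact permutation p = 0.1 for each). Both classes are deletions. Minus-strand preys downstream, which are inversions, went the other way, 0.718 ± 0.228 and 5.91 ± 2.86 (SD, n = 3). Rejoins within the Jκ1 break region, 1.45% ± 0.469 of junctions from the Jκ1CE bait and 2.41% ± 0.542 from the Jκ1SE bait (SD, n = 3), overlapped between baits.

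**Figure D4:**
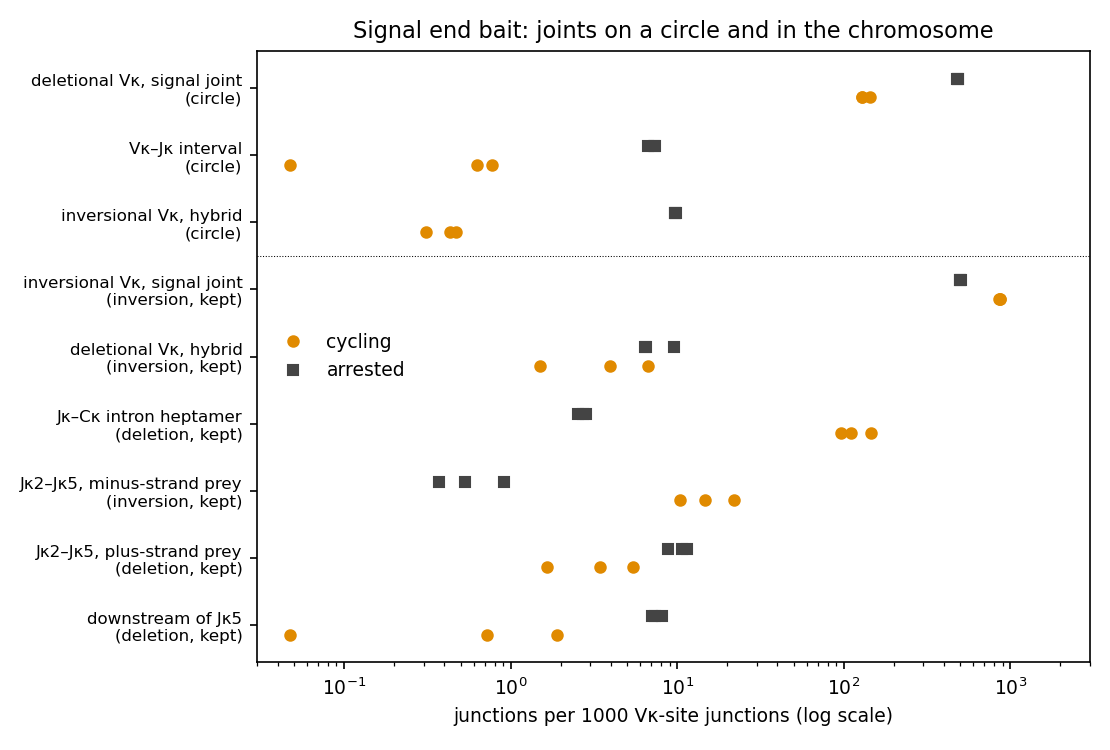
Junctions of the signal end bait per 1000 Vκ-site junctions (log scale, x axis) by class of joint, in cycling (circles) and arrested (squares) WT libraries; each point is a library, and classes above the dotted line lie on excised circles. The 3 circular classes are lower in cycling cells without overlap, the intron heptamer is higher (96.0 to 147 against 2.54 to 2.85), and the lowest 2 classes, both deletions kept in the chromosome, are lower.

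The structure of Vκ joints differed by bait as well. Direct joints, with neither overlap nor gap, made up 93.7%, 95.1% and 92.2% of Vκ joints from the Jκ1SE bait and 71.4%, 72.1% and 71.3% from the Jκ1CE bait. Insertions made up 1.25% ± 0.177 and 12.4% ± 0.302, 1-bp microhomology 4.70% ± 1.08 and 13.5% ± 0.058, and longer microhomology 0.360% ± 0.341 and 2.51% ± 0.291 (Jκ1SE and Jκ1CE; SD, n = 3). None of the 4 overlapped between baits (exact permutation p = 0.1 for each). Of 1063, 719 and 1057 signal joints with 1-bp microhomology from the Jκ1SE bait, 1062, 701 and 1023 were copies of 1 Igkv8-27 joint. Its shared base lies on the coding side of the Vκ break, and both heptamers are whole. Read as direct, this joint would raise the direct share of the Jκ1SE bait. Over distinct junctions direct joints were 46.7% ± 2.40 from the Jκ1SE bait and 50.1% ± 3.27 from the Jκ1CE bait (SD, n = 3). Insertions were 48.3% ± 5.32 and 37.2% ± 4.06 (SD, n = 3). This count does not measure how common precise joints are, because an untrimmed direct signal joint counts once per Vκ site in a library. The Jκ1SE libraries held 280, 277 and 270 distinct junctions, with junctions at 93, 103 and 97 sites. Per molecule end direct joints were 84.7% ± 3.62 from the Jκ1SE bait and 65.8% ± 1.70 from the Jκ1CE bait (SD, n = 3). In arrested cells direct joints stood at 94.7% ± 0.429 from the Jκ1SE bait and 70.4% ± 0.357 from the Jκ1CE bait (SD, n = 3). Whether the bait gap in structure differed between treatments could not be tested by permuting bait labels, because the gap is large in both. Within 10 bp of the break lay 99.96% ± 0.050 of the Jκ1SE and 98.7% ± 0.254 of the Jκ1CE junctions found within 100 bp (SD, n = 3).

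The ends were intact from the signal side and trimmed from the coding side. The Jκ1 signal end had lost no base in 98.8% ± 0.359 of Vκ joints and the Jκ1 coding end in 38.5% ± 1.25 (SD, n = 3). Among joints of coding end to coding end the median loss was 1 base from Jκ1 and 2, 2 and 3 bases from the Vκ in the 3 libraries, against 0 from each side in signal joints. Inserted bases in coding joints were short, with a median of 2, and the commonest string was GT, with 603, 942 and 1218 joints. GT is the reverse complement of the last bases, ac, that the intact Jκ1 coding end contributes to the read. Insertions made up wholly of such palindromic bases, taken from either end, were 66.7%, 68.9% and 74.4% of the inserted coding joints. In signal joints insertions numbered 262, 220 and 277 copies from 224, 186 and 162 molecule ends. Per molecule end, insertions made up 11.1% ± 4.23 of Vκ joints from the Jκ1SE bait and 19.7% ± 2.49 from the Jκ1CE bait (SD, n = 3).

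The most copied joints found in all 3 libraries of a bait illustrate this; the bait, read toward the break, is in lower case and the prey in capitals, as sequenced. The signal joints run heptamer to heptamer. Both Igkv8-27 joints share 1 base between the ends as aligned. In the Igkv8-27 signal joint that base, at position 70121803, lies on the coding side of the Vκ break. Both heptamers are whole there, so this joint also reads as direct.
Igkv6-32 signal joint, 1660, 2412 and 1489 copies: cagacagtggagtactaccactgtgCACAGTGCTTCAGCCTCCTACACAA
Igkv4-50 signal joint, 1147, 878 and 902 copies: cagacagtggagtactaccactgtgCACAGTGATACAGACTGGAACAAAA
Igkv8-27 signal joint, 1062, 701 and 1023 copies: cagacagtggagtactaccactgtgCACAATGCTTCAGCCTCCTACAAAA
Igkv3-7 coding joint, 243, 143 and 546 copies: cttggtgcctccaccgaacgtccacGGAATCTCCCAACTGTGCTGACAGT
Igkv8-27 coding joint, 161, 318 and 279 copies: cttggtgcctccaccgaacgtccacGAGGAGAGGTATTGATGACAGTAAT
Igkv3-10 coding joint, 198, 246 and 258 copies: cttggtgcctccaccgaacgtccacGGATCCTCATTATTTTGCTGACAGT
Of 508 distinct joints of the Jκ1SE bait, 114 were found in all 3 libraries, and of 3413 of the Jκ1CE bait, 476. Since precise joints look alike whenever they form, a shared joint is not a shared molecule. Coding joints with at least 4 inserted bases are more telling. Such molecule ends numbered 148, 250 and 295 in the Jκ1CE libraries, and 0 recurred in another cycling library. In an arrested library of the same bait, 16, 33 and 29 recurred with the same insert and the same far end. From the Jκ1SE bait 1, 0 and 0 of 18, 8 and 12 did so. The pools searched were unlike in size, so the recurrence in cycling and arrested libraries cannot be compared. At Vκ sites the arrested Jκ1CE libraries held 86591, 75436 and 83696 molecule ends, and the cycling ones 4216, 3739 and 4413. The part of molecules shared between libraries in the results was not tested.

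**Figure D5:**
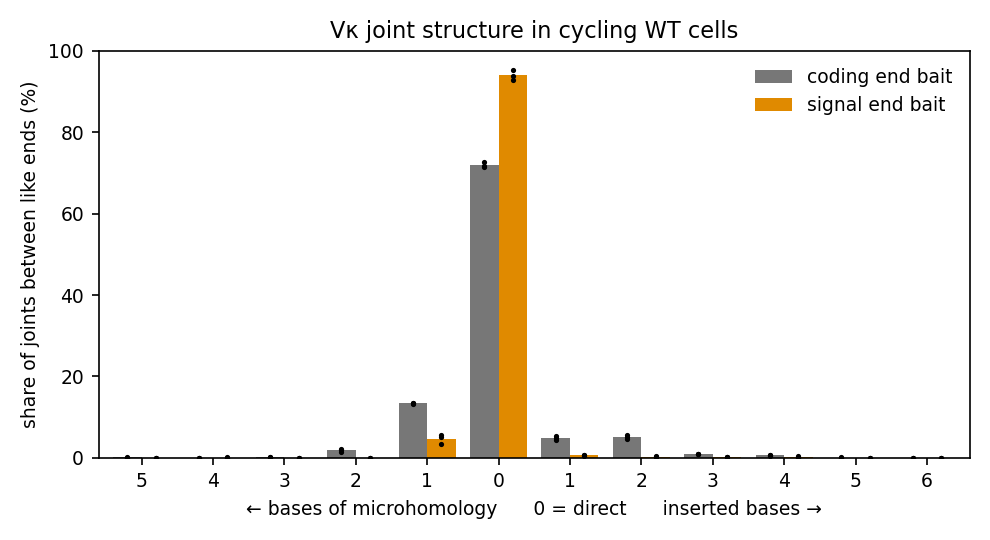
Share of Vκ joints between like ends (percent, y axis) by bases of microhomology or inserted bases (x axis) in cycling WT cells; bars are means of 3 libraries and dots are libraries. Direct joints dominate from the signal end, and 1-bp microhomology and insertions of 1 or 2 bases are seen mainly from the coding end.

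Junctions outside chromosome 6 were rare and came almost wholly from the coding end. They numbered 47, 110 and 64 in the Jκ1CE libraries (0.256% ± 0.092 of junctions, SD, n = 3) and 3, 0 and 2 in the Jκ1SE libraries. The library with 0 of 25104 allows a share of up to 0.012%, with copies counted as independent. The Jκ1CE junctions came from 31, 46 and 26 molecule ends, and most carried insertions (45, 79 and 39). The bins of 1 Mb with the most junctions were on chromosomes 9 (14000001 to 15000000; 27 junctions), 11 (83000001 to 84000000; 18) and 4 (18000001 to 19000000; 18), each from 1 library and at most 4 molecule ends. From the Jκ1SE bait the bins, on chromosomes 1, 13 and 14, held 2, 1 and 1. The junction on chromosome 14 lay in the Tcra/Tcrd locus, and no other cycling junction fell within 10 kb of Igh, Igl, Tcra/Tcrd or Tcrg.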

How the data were processed

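Genomic DNA of WT vAbl cells was cut by sonication and joints to Jκ1 were read by HTGTS-JoinT-seq. Per the labels and methods, the authors took 500000 read pairs per library, mapped them to mm9 with TranslocWrapper (Bowtie2 in the submitters' processing notes), kept duplicates and added bait-region junctions. The deposited lists hold 1 line per junction with no score or count column, so amplified copies are counted. Intervals of a count of 0 (3 counts) cover counting error only and treat copies as independent, so limits for molecules are wider. Here junctions were counted within 200 bp of Vκ break sites. These were called from the pooled signal end libraries of arrested WT cells with DMSO, L67 or L82-G17. A site needed at least 30 junctions at a position, none higher within 50 bp, and a CAC heptamer. Orientation came from the heptamer side, and circle or chromosome from strand and side, which assumes an unrearranged allele. Library means were compared by exact permutation. Sites with a mean of at least 50 junctions were tested with limma 3.58.1 in R 4.3.3 on log2(junctions per 1000 Vκ-site junctions, with 1 junction added), Benjamini-Hochberg at 0.05. On simulated data for the cycling comparison (71 sites), 14 of 20 sites changed by 1.5 (log2) were recovered (70%), with 2 unchanged sites called. Replicates were numbered in accession order, and chi-square tests found no duplicated library. Chi-square per degree of freedom between cycling replicates, over Vκ sites, was 17.4 to 26.3 (Jκ1CE) and 27.2 to 34.2 (Jκ1SE). Site counts thus varied between replicates beyond the counting error of independent copies. Named sites were the 5 most used per bait, the 6 largest differences each way without overlap, and the 3 largest interactions each way; off-Vκ classes, the 3 top 1-Mb bins and the 3 most copied shared joints per bait were also named. Comparisons, lists and sites were chosen with earlier results of these data known. Alternatives left out each library, counted distinct junctions or molecule ends once, and changed windows, thresholds and denominators.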

Additional observations from a re-analysis of the deposited data

Results flagged for a closer look

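Bait differences (Jκ1SE minus Jκ1CE) flagged by exact permutation of bait labels within treatment are given as the cycling minus the arrested difference. The null of that permutation is no bait effect in either treatment. It does not flag gaps of the same sign: the share of Igκ junctions on circles gave −36.7 points with exact permutation p = 0.1. In percentage points they were −32.9 for the deletional share, −9.79 for sTAD1-2, −9.32 for sTAD3, 14.1 for sTAD4, 5.05 for sTAD5, −7.12 for the Vκ-site share of all junctions, −2.44 for hybrid joints at inversional sites and −1.17 for the Vκ–Jκ interval. For intron site joints the value was 98.0 per 1000 Vκ-site junctions. The adjusted exact permutation p was 0.0354 for sTAD3 and sTAD5 and 0.0138 for the others. For sTAD3 and sTAD5 the baits overlapped in cycling cells.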

How the results depend on the processing

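Of 253 planned recomputed values, 230 kept their direction and side of the threshold (a count its size within 1.5 times), 10 moved and 13 changed sign; no library-level comparison in cycling cells could pass the threshold. Many that kept direction changed in size. Per distinct junction the deletional share difference was −7.75 points, its interaction −15.9, sTAD1-2 −1.52, sTAD5 5.12 and intron joints 19.6 per 1000, and per molecule end sTAD5 was 0.350 and intron joints 37.7. Leaving out each library kept the deletional share difference at −25.6 to −24.1 points and its interaction at −33.6 to −32.0. Counting each distinct junction once turned the bait difference in sTAD3 (1.76 points), sTAD4 (−5.36), direct joints (−3.38), insertions (11.1), hybrid joints (1.93), the Vκ region away from sites (0.173), Jκ2 to Jκ5 (0.539) and downstream of Jκ5 (0.523). Counting each molecule end once, chosen after seeing the data, turned sTAD3 (0.234) and downstream of Jκ5 (0.0159), and telling ends apart by the side of the break turned hybrid joints (2.40). Leaving out libraries moved the Vκ region away from sites between −0.061 and 0.030 (above 0 without Jκ1CE replicate 1 or Jκ1SE replicate 3, at 0.030 and 0.020) and downstream of Jκ5 between −0.110 and 0.063 (above 0 without Jκ1CE replicate 2 or Jκ1SE replicate 3, at 0.051 and 0.063). Sites called by limma were 10 higher and 15 lower; within the same orientation there were 2 and 2, per distinct junction 17 and 5, and per molecule end 17 higher. Leaving out libraries gave 7 to 11 higher and 8 to 18 lower (9 without Jκ1CE replicate 1 and 8 without Jκ1CE replicate 2). The interaction, 14 higher and 18 lower, gave 2 and 1 within orientation, 30 and 3 per distinct junction, and 12 to 18 and 13 to 26 when libraries were left out. Counting distinct junctions takes an untrimmed direct joint once per site, so those shares do not weigh sites by their use. The cause of these shifts was not tested. No paired analysis was possible because the labels carry no replicate numbers. With 22602 to 32108 junctions per cycling library, a class at 0 allows up to 0.00934% to 0.0133% of junctions, with copies counted as independent.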
